A study of Mus musculus with 12 samples.

Results

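The genes described here encode subunits of the 26S proteasome. They were chosen by gene name: every gene called Psma, Psmb, Psmc or Psmd with a number, apart from the interferon-inducible replacements Psmb8, Psmb9 and Psmb10. The rule found 36 of the 39985 gene names in the series. Where a name stood on several table rows, the row with the highest mean level was used. The proteasome is the barrel-shaped protease that destroys ubiquitin-tagged proteins. Its 20S core has outer rings of alpha subunits (Psma), which form the gate, and inner rings of beta subunits (Psmb), some of which cut peptides. The 19S cap has a ring of ATPases (Psmc), which unfold substrates, and non-ATPase subunits (Psmd), which bind and release ubiquitin. Male germ cells are known for a variant, the spermatoproteasome, in which Psma8 takes the place of its somatic counterpart Psma7 and which is often capped by the activator Psme4 (PA200).

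RNA sequencing covered 12 mouse libraries in 4 groups of 3. Control and Phb knockdown GC2 cells are an immortalised line of spermatocyte origin. The other groups are spermatocytes sorted from control mice and from mice with a conditional Phb knock-out. Phb encodes prohibitin, a scaffold protein of the inner mitochondrial membrane. The sources used here do not give the strain, the age of the mice, the Cre driver, the deleted part of Phb or the way of knockdown. Nor do they name the animals or cultures behind each library. The p-values therefore rest on the spread among these libraries alone, and that spread may be technical.

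Levels are in FPKM, fragments scaled to transcript length and library size, as the authors deposited them, and means are given ± SD over 3 libraries. The FPKM of all rows summed to between 194949 and 206711 in GC2 libraries and between 289707 and 297362 in spermatocyte libraries. The read depth is unknown. Mitochondrially encoded rows held 12.2% to 13.6% of the total in control spermatocytes and 17.06% to 19.5% in knockout spermatocytes, and at most 0.13% in GC2 cells. The targeted gene fell from 54.3 ± 2.15 to 20.02 ± 2.31 FPKM in GC2 cells (log2 fold change -1.40, adjusted p = 0.00062). In spermatocytes Phb was at 12.6, 13.35 and 13.86 FPKM in control and still at 11.81, 11.33 and 11.53 in knockout libraries, a ratio of 0.871. That difference (-0.18, adjusted p = 0.00741) was not called with quantile normalization (-0.07, adjusted p = 0.169), median centring (-0.02, adjusted p = 0.63) or rescaling to 1 total without mitochondrial rows (-0.12, adjusted p = 0.0654). The Phb level thus checks the knockdown label but hardly bears out the knockout label, and the spermatocyte groups are named here by their labels alone.

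Markers of other cells and stages moved with the knockout. All 8 pachytene spermatocyte markers (Ldhc and Piwil1 among them) and all 8 spermatid markers fell in knockout spermatocytes. The summed level of the pachytene list went from 2295 to 2342 FPKM in control libraries down to 45.3 to 47.6 in knockout libraries, and that of the spermatid list from 771 to 778 down to 7.57 to 9.99. Spermatogonium markers (241 to 246 against 265 to 274, with 2 of 8 higher and 4 lower) and early meiosis markers (273 to 285 against 235 to 244, with 3 of 6 higher and 3 lower) moved far less. All 8 Sertoli cell markers (672 to 763 against 2858 to 3024) and all 6 Leydig markers (19.6 to 20.3 against 191 to 195) rose. So did 5 of 5 tested macrophage markers (12.2 to 18.3 against 26.8 to 30.6) and 3 of 4 tested peritubular myoid markers. Actg2, the remaining tested myoid marker, was called lower, with 11.36, 11.4 and 11.13 FPKM in control and 1.14, 2.05 and 1.26 in knockout libraries. None of the markers of these other cells was at 0 in any spermatocyte library, and the spermatid marker Acrv1 was listed at 0 in knockout replicate 2. In GC2 cells 4 of the 8 pachytene markers had a row, of which Ldhc and Tdrd6 were under 0.1 FPKM in every library, as were all 4 spermatid markers with a row and the synaptonemal complex gene Sycp1. Other markers had a level there. The pachytene marker Mybl1 was at 2.03 to 2.74 FPKM. Hspa2 was at 4.64 and 4.68 in knockdown replicates 2 and 3 and listed at 0 elsewhere in GC2 cells. The early meiosis marker Prdm9 was at 0.73 to 1.52. Markers also moved with the knockdown: of the GC2 markers tested, the myoid marker Acta2 fell from 93.8 ± 4.53 to 16.8 ± 0.716 FPKM, and Clu and Wt1 (Sertoli) and Uchl1 (spermatogonium) rose. The summed myoid list was at 105 to 113 FPKM in control and 23.7 to 33.8 in knockdown libraries, and the Sertoli list at 20.3 to 22.05 and 35.3 to 36.5. The part of these shifts in the subunit results was not tested, and in bulk RNA fewer cells of a type and less RNA per cell cannot be told apart.

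Among the subunits, the testis gene Psma8 (chromosome 18, 14706151 to 14762301, plus strand, GRCm38) had the largest change in spermatocytes. It was at 45.97, 37.25 and 22.4 FPKM in the control libraries and at 6.51, 6.36 and 4.84 in the knockout libraries. The 3 control libraries were spread widely, with a coefficient of variation of 33.9%, where the median over the 35 subunits at 1 FPKM or more was 3.06%, yet even the lowest control library stood above every knockout library. The log2 fold change was -2.34 (SE 0.266, adjusted p = 0.00027), and the call held in all 14 alternatives run. Psma8 thus fell together with the pachytene and spermatid markers given above. The GC2 level of Psma8 is not analysed here.

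Its somatic counterpart Psma7 (chromosome 2, 180036374 to 180042433, minus strand, GRCm38) moved the other way. Psma7 stood at 15.84, 16.47 and 16.49 FPKM in control and at 36.87, 35.86 and 36.31 in knockout spermatocytes, with little spread in either group. The log2 fold change of 1.11 (SE 0.028, adjusted p = 2.49e-07) was the largest rise of any subunit in spermatocytes. Psma8 made up 74.4%, 69.3% and 57.6% of the summed Psma7 and Psma8 level in control libraries, and 15.01%, 15.1% and 11.8% in knockout libraries. The share was therefore lower by 53.2 percentage points, with groups that did not overlap. An exact two-sided permutation test gave p = 0.1, the smallest that 3 against 3 libraries allow.

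The sum of Psma7 and Psma8 changed less than either gene. It was 61.81, 53.72 and 38.89 FPKM in control and 43.38, 42.22 and 41.15 in knockout libraries. The groups overlapped (exact permutation p = 0.4), and the control libraries differed among themselves through Psma8. In GC2 cells, where Psma7 was at 78.75, 73.21 and 76.02 FPKM in control and 88.81, 85.54 and 84.58 in knockdown libraries, the rise was small (log2 fold change 0.18, SE 0.045, adjusted p = 0.0396). That call was lost without control replicate 2 or 3 or any 1 of the 3 knockdown libraries (adjusted p up to 0.107), with no filter (0.0732) and without the variance trend (0.0626). The difference between both contrasts for Psma7 was 0.93 on the log2 scale (SE 0.053, adjusted p = 2.43e-07).

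**Figure D1:**
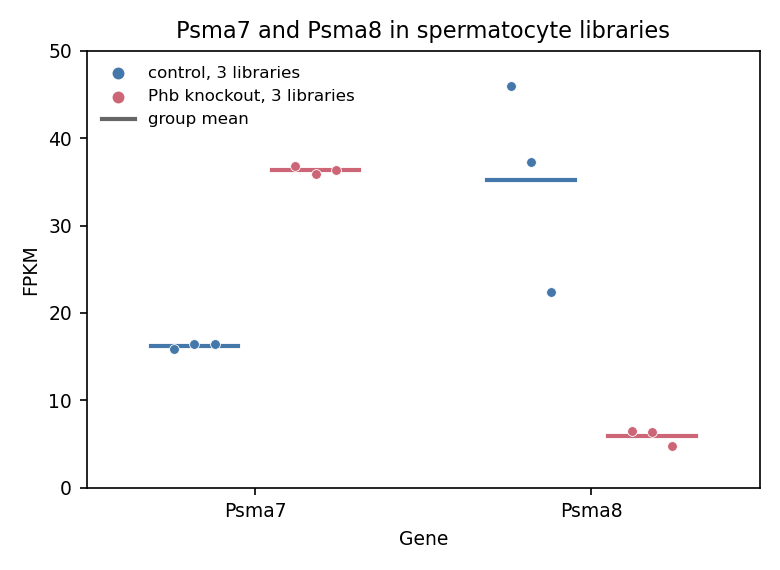
FPKM of Psma7 and Psma8 in the 6 spermatocyte libraries; points are libraries and lines are group means. Psma7 rises from about 16 to 36 FPKM without overlap, and Psma8 drops to between 4.84 and 6.51 from control values spread between 22.4 and 45.97.

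Counted over all subunits, the spermatocyte change was not in 1 direction. Of 35 tested subunits 13 were higher and 13 lower in knockout spermatocytes at an adjusted p under 0.05. Among all 15957 rows tested, 40.9% were called higher and 38.5% lower, so the subunits' shares of 37.1% and 37.1% lie near the background. The median log2 fold change was -0.00 over the tested subunits and 0.05 over all rows. The counts depended on the scaling. With median centring 20 subunits were higher and 8 lower, while the median over all rows became 0.21 and the share of higher calls among all calls went from 51.6% to 59.2%. With quantile normalization the subunit counts were 19 and 9 and the median over all rows was 0.28, with 62.0% of all calls higher. Psmb11, the beta subunit of thymic cortex, was between 0.04 and 0.07 FPKM in every spermatocyte library and was not tested.

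By subcomplex, core and cap genes differed in the direction of their calls. Of the 14 constitutive 20S genes 7 rose and 2 fell, with a median log2 fold change of 0.13. Of the 17 constitutive 19S genes 5 rose and 10 fell, with a median of -0.20. These 2 medians stand on either side of the 0.05 of all rows. With median centring the counts were 12 and 0 for the core (median 0.29) and 6 and 7 for the cap (-0.04). The median over all rows was then 0.21, and 59.2% of all calls were higher. With quantile normalization the counts were 12 and 0 for the core (0.25) and 5 and 8 for the cap (-0.08). The median over all rows was then 0.28, and 62.0% of all calls were higher, so both medians lay below that of all rows. The cap median was below the core median under each scaling.

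Of the 7 constitutive alpha genes, which leave out Psma8, 4 rose and none fell. Psma1 went from 22.27, 23.67 and 22.9 FPKM to 31.69, 32.22 and 32.13 (log2 fold change 0.46, SE 0.030, adjusted p = 1.75e-05). Psma5 rose from 49.3 ± 1.11 to 57.5 ± 3.54 FPKM (0.22, adjusted p = 0.00611), and the row that Psma2 shares with AW209491 rose from 14.3 ± 0.662 to 19.04 ± 0.21 (0.39, adjusted p = 0.000143). Psma3, Psma4 and Psma6, which are structural ring members, were not called. Psma6, the most abundant alpha gene, was at 92.75, 90.64 and 89.46 FPKM in control and 88.63, 91.39 and 92.02 in knockout libraries, with overlapping groups. Psma3, Psma4 and Psma6 were called higher with quantile normalization (0.18, 0.11 and 0.12) and with median centring (0.22, 0.16 and 0.16). All 7 constitutive alpha genes were thus higher under both.

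Of the beta ring, the structural genes Psmb2, Psmb3 and Psmb4 rose. Psmb3 had the tightest change, from 25.94, 26.64 and 26.34 FPKM to 33.39, 33.25 and 32.97 (0.32, SE 0.023, adjusted p = 2.85e-05). Psmb2 went from 50.45, 50.95 and 63.26 FPKM to 64.48, 76.5 and 76.76 (0.40, adjusted p = 0.0164), and control replicate 3 nearly reached the lowest knockout library. The call was lost without control replicate 1 or 2 or knockout replicate 2 or 3 (adjusted p up to 0.0566). Psmb4 rose from 77.4 ± 3.77 to 89.4 ± 1.34 FPKM (0.21, adjusted p = 0.00309).

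The genes of the 3 catalytic beta subunits had small values whose calls depended on the scaling. Psmb5 (chymotrypsin-like activity), on a row shared with the microRNA gene Mir686, went from 88.8 ± 1.14 to 82.9 ± 2.87 FPKM (-0.10, adjusted p = 0.0273). Psmb6 (caspase-like activity) went from 83.9 ± 1.55 to 77.4 ± 3.21 (-0.12, adjusted p = 0.025). Psmb7 (trypsin-like activity) was at 50.8 ± 1.93 and 52.6 ± 2.90 FPKM and was not called (0.05, adjusted p = 0.381), but was called higher with median centring (0.21), quantile normalization (0.16) and rescaling without mitochondrial rows (0.12). The calls of Psmb5 and Psmb6 were lost with quantile normalization (log2 fold changes -0.00 and -0.04) and with rescaling without mitochondrial rows (-0.03 and -0.05), and the values changed sign with median centring (0.06 and 0.04). They were also lost without single libraries: Psmb5 without any of the 6 but knockout replicate 1 (adjusted p up to 0.078), and Psmb6 without control replicate 1 or 3 or knockout replicate 2 or 3 (adjusted p up to 0.0731). Psmb1 was at 24.4 ± 1.85 and 25.4 ± 0.157 FPKM and was not called, but was called higher with quantile normalization (0.18) and median centring (0.22).

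The 19S ATPase ring, whose members are present in equal number in each assembled cap, held the largest single change among the constitutive genes. Psmc3 (chromosome 2, 91054009 to 91066369, plus strand, GRCm38) was the most abundant of the 31 constitutive genes in control spermatocytes. It stood at 141.09, 145.7 and 146.95 FPKM in control and at 48.88, 45.77 and 48.82 in knockout libraries (log2 fold change -1.58, SE 0.035, adjusted p = 1.45e-07). Psmc2 went from 36.37, 37.67 and 36.25 FPKM to 18.77, 17.83 and 18.46 (-0.96, SE 0.031, adjusted p = 6.98e-07). Psmc5 fell from 94.8 ± 1.08 to 68.3 ± 0.771 FPKM (-0.47, adjusted p = 3.5e-06).

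Of the remaining ATPase genes 2 rose, and Psmc1 was slightly lower. Psmc6 rose from 25.93, 24.48 and 24.5 FPKM to 34.46, 34.38 and 33.26 (0.43, SE 0.033, adjusted p = 3.99e-05), and Psmc4 from 33.4 ± 1.11 to 41.2 ± 2.48 (0.29, adjusted p = 0.00188). Psmc1 was at 85.07 ± 2.25 and 79.3 ± 1.27 FPKM (-0.10, adjusted p = 0.0163), and its call was lost without knockout replicate 1 (adjusted p = 0.0519), with quantile normalization (-0.03) and with rescaling without mitochondrial rows (-0.03), and its sign changed with median centring (0.06). The opposite moves brought the genes closer together: the ratio of Psmc3 to Psmc6 was 5.44, 5.95 and 5.998 in control and 1.42, 1.33 and 1.47 in knockout libraries. In GC2 cells it was 0.82 ± 0.068 in control and 0.634 ± 0.015 in knockdown libraries.

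**Figure D2:**
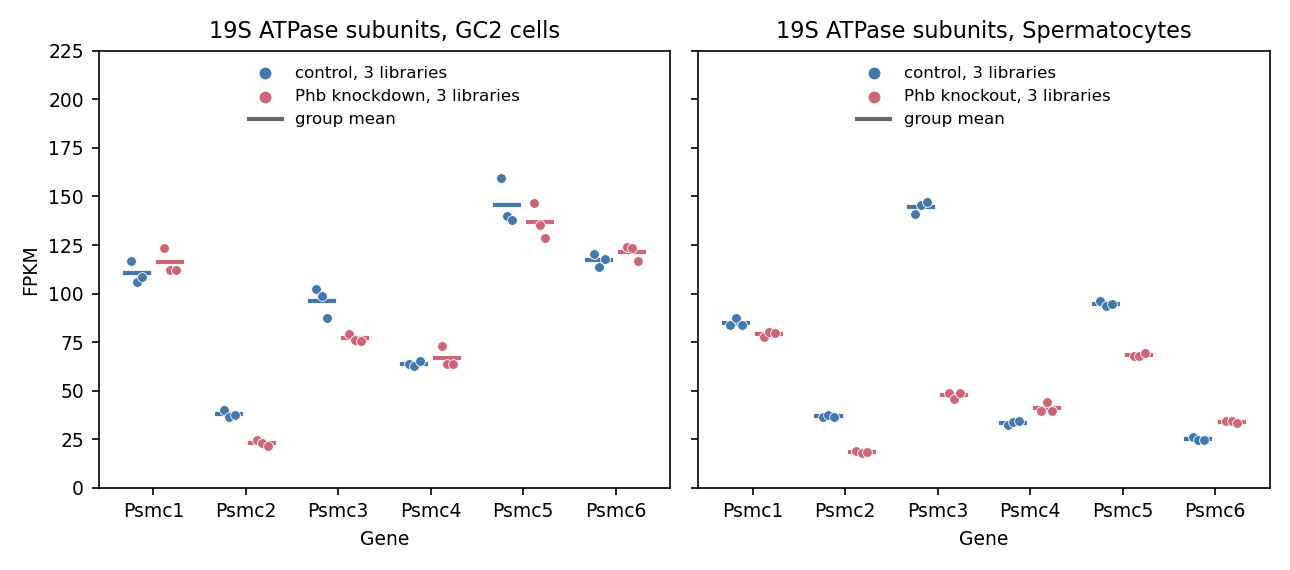
FPKM of the 6 ATPase genes of the 19S cap in GC2 (left) and spermatocyte (right) libraries; points are libraries and lines group means. Psmc3 stands above 141 FPKM in control spermatocytes only, and Psmc2 is lower in both depleted groups.

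Among the 11 non-ATPase genes of the cap 6 fell and 3 rose. Psmd8, a subunit of the lid, went from 48.37, 47.74 and 43.98 FPKM to 31.43, 32.65 and 30.84 (-0.55, SE 0.045, adjusted p = 5.38e-05). Psmd2, a large scaffold on which shuttle receptors dock, was the most abundant of the 11 and fell from 117 ± 1.18 to 83.9 ± 1.08 FPKM (-0.47, adjusted p = 3.24e-06). The lid gene Psmd13 fell from 27.3 ± 0.621 to 20.2 ± 0.871 FPKM (-0.42, adjusted p = 0.000107), and the lid gene Psmd11 from 14.75, 13.11 and 14.51 to 11.05, 10.44 and 10.81 (-0.36, adjusted p = 0.000844).

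Smaller falls were seen for the lid gene Psmd6 (-0.20) and for the row that Psmd1 shares with Gm21972 and Armc9 (-0.24, from 12.99 ± 0.472 to 10.8 ± 0.340 FPKM). Both calls were lost with median centring (-0.04 and -0.08), and that of Psmd6 with quantile normalization as well (-0.08). The genes that rose were Psmd7, from 50.21, 51.23 and 51.1 FPKM to 67.43, 67.96 and 70.43 (0.42, SE 0.026, adjusted p = 1.28e-05), Psmd14 (0.21, adjusted p = 0.000648) and Psmd12 (0.16, adjusted p = 0.01). Psmd14 encodes the enzyme that removes ubiquitin chains from substrates, and Psmd7 its partner in the lid. Psmd4, a ubiquitin receptor, was at 46.97 ± 2.11 and 46.9 ± 2.97 FPKM, and Psmd3 at 19.2 ± 1.47 and 19.02 ± 1.25. Neither was called, and Psmd4 was called higher with median centring (0.16).

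The other 3 Psmd genes encode chaperones that help to assemble the 19S base and then leave it. Psmd10 (gankyrin) rose from 9.42, 9.26 and 8.56 FPKM to 14.06, 14.58 and 15.39 (0.64, SE 0.051, adjusted p = 4.68e-05). Psmd5 (8.11 ± 0.549 and 7.47 ± 1.01 FPKM) and Psmd9 (4.53 ± 0.494 and 4.92 ± 0.239) were not called, and Psmd9 was called higher with quantile normalization (0.28) and median centring (0.26).

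**Figure D3:**
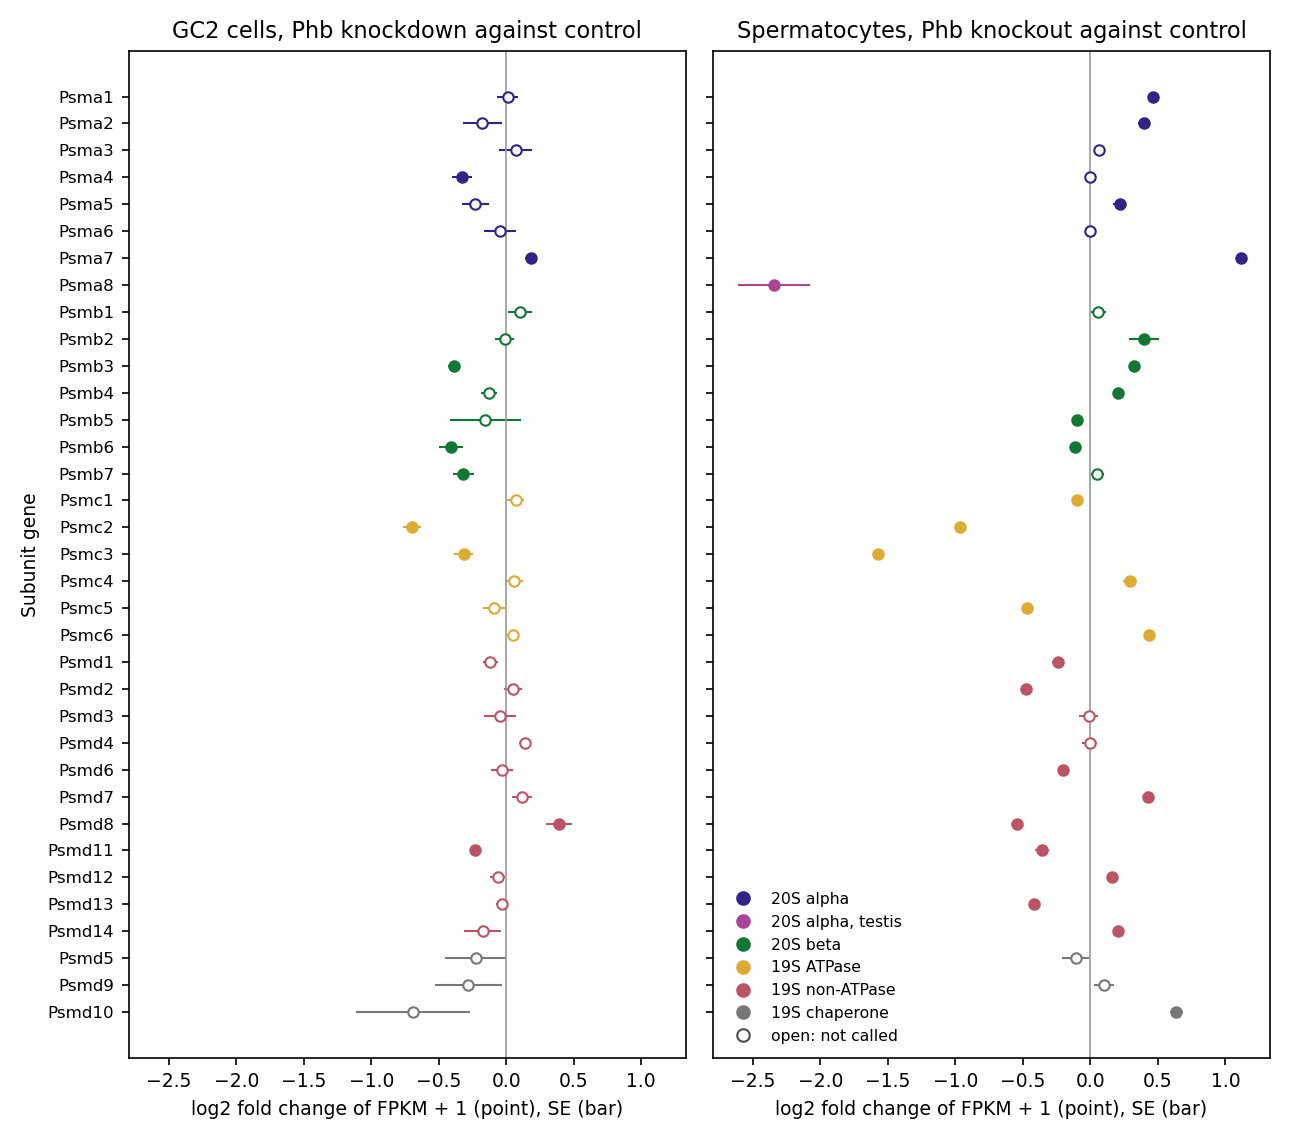
Log2 fold change of FPKM + 1 with its SE for each tested subunit gene, GC2 knockdown (left) and spermatocyte knockout (right), coloured by subcomplex; filled points have an adjusted p under 0.05. In spermatocytes Psma8 (-2.34) and Psmc3 (-1.58) lie farthest to the left and Psma7 (1.11) farthest to the right, while most GC2 points lie within 0.5 of 0.

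Summed per library, the constitutive subunits kept most of their level in spermatocytes while its make-up shifted. The 31 genes summed to 1500, 1507 and 1523 FPKM in control and 1405, 1412 and 1414 in knockout libraries, a change of -6.59%, which became -1.93% when libraries were rescaled to 1 total without mitochondrial rows. The alpha ring sum, without Psma8, was 16.5% higher and the beta ring sum 6.66% higher. The ATPase sum changed by -31.1% and the non-ATPase sum by -9.05%. Each of these comparisons had groups that did not overlap and an exact two-sided permutation p of 0.1, the smallest possible for 3 against 3. Psma8, which fell from 35.2 ± 11.9 to 5.90 ± 0.924 FPKM, is left out of these sums and of the 20S mean below. An alpha sum with Psma8 was not tested, and the sum of Psma7 and Psma8 alone overlapped between the groups. The mean 19S level per gene, divided by the mean 20S level per gene, was 1.06, 1.05 and 1.04 in control and 0.764, 0.758 and 0.759 in knockout libraries. As a ratio within a library it does not depend on scaling.

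One gene carried much of the change of the sum. Left out, a choice made after its values were seen, Psmc3 took the change of the 31-gene sum from -6.59% to -0.21%, with overlapping groups (exact permutation p = 0.8). The 19S to 20S ratio without Psmc3 was 0.925 ± 0.010 in control and 0.751 ± 0.0021 in knockout libraries, again without overlap.

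**Figure D4:**
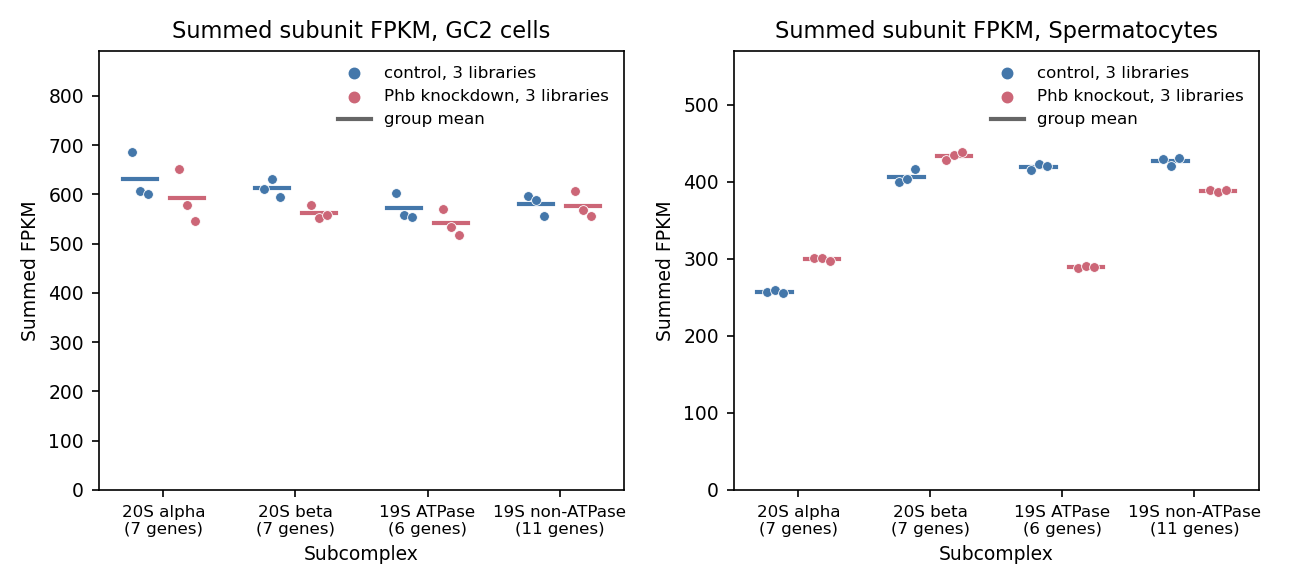
Summed FPKM of the 4 constitutive subcomplexes in GC2 (left) and spermatocyte (right) libraries; points are libraries, lines are group means and both axes start at 0. In spermatocytes the alpha sum, which leaves out Psma8, rises from between 255 and 260 to between 298 and 301 FPKM. The ATPase sum drops there from between 415 and 423 to between 287 and 290.04 FPKM. In GC2 cells the groups overlap except for the beta sum, which is lower in knockdown libraries.

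In GC2 cells the subunits changed less. Of 34 tested subunits 2 were higher and 7 lower after Phb knockdown. Among all 10791 rows tested, 10.7% were called higher and 13.9% lower, next to 5.9% and 20.6% of the subunits. The median log2 fold change was -0.08 over the tested subunits and -0.04 over all rows. Single libraries moved these counts. Without control replicate 2 or 3 there were 4 lower calls, and without knockdown replicate 2 or 3 there were 3. The higher calls numbered 1 without control replicate 1 or 2 and 0 without any of the other 4 libraries. With quantile normalization there were again 2 higher and 7 lower, while the share of higher calls among all calls went from 43.5% to 53.6%. With rescaling to 1 total without mitochondrial rows 3 were higher and 2 lower, and that share was 57.2%. Mitochondrial rows held at most 0.13% of the FPKM total in GC2 cells, so there this setting almost only makes the totals of the other named rows equal. The FPKM totals were 203973 to 206711 in control and 194949 to 201776 in knockdown libraries.

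The firmest change was that of the ATPase gene Psmc2, at 40.12, 36.38 and 37.61 FPKM in control and 24.54, 23.15 and 21.49 in knockdown libraries (log2 fold change -0.70, SE 0.068, adjusted p = 0.00228). Psmb3 went from 102.53, 97.57 and 97.9 FPKM to 75.18, 76.55 and 74.77 (-0.39, SE 0.039, adjusted p = 0.00237). Psmc2 and Psmb3 were the 2 of the 9 calls that held in all 14 alternatives run. Psmd11 went from 30.48, 30.24 and 30.45 FPKM to 26.05, 26.16 and 25.11 (-0.23, adjusted p = 0.013), and its call was lost only when libraries were rescaled to 1 total without mitochondrial rows (adjusted p = 0.0523).

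The other 4 lower calls lay near the threshold. They were Psmb6 (75.81, 88.07 and 83.33 against 55.98, 65.11 and 64.4 FPKM, log2 fold change -0.41, adjusted p = 0.0247), Psma4 (74.33, 62.44 and 65.19 against 55.14, 52.2 and 52.49, -0.33, adjusted p = 0.0318), Psmb7 (-0.32, adjusted p = 0.0398) and Psmc3 (102.44, 98.72 and 87.22 against 78.97, 76.31 and 75.51, -0.31, adjusted p = 0.0287). Psmb6 lost its call without replicate 2 or 3 of either group (adjusted p up to 0.0777) and Psma4 without control replicate 3 or any knockdown library (up to 0.0956). Psmb7 lost it without any library but knockdown replicate 1 (up to 0.115), and Psmc3 without any but control replicate 3 (up to 0.0901). Their log2 fold changes stayed lower in each of these fits, from -0.34 to -0.47 for Psmb6, -0.26 to -0.38 for Psma4, -0.26 to -0.39 for Psmb7 and -0.27 to -0.38 for Psmc3. All 4 calls were also lost with rescaling to 1 total without mitochondrial rows, those of Psma4, Psmb7 and Psmc3 with no filter, and those of Psma4 and Psmb7 with median centring. The lid gene Psmd8 was higher, at 21.61, 26.19 and 23.06 FPKM in control and 34.32, 29.83 and 29.61 in knockdown libraries (0.39, SE 0.096, adjusted p = 0.0387). This call was lost without any library but control replicate 2 (adjusted p up to 0.109), and with no filter (0.0612).

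The other 25 tested subunits were not called in GC2 cells, where the spread between replicates was larger (median coefficient of variation 7.34% among control libraries). Psmd10 varied most, at 31.79, 30.01 and 13.99 FPKM in control and 22.96, 11.43 and 11.13 in knockdown libraries. Psmb11 was listed at 0 to 0.01 FPKM and was not tested. The 31-gene sum was 2495, 2386 and 2304 FPKM in control and 2407, 2233 and 2177 in knockdown libraries, with overlapping groups (exact permutation p = 0.3). The beta ring sum was 610.49, 631.5 and 593.67 FPKM in control and 578.73, 551.76 and 557.02 in knockdown libraries (-8.07%). These groups did not overlap (exact permutation p = 0.1). The alpha, ATPase and non-ATPase sums overlapped (exact permutation p = 0.4, 0.3 and 0.9). The 19S to 20S ratio was 0.763 ± 0.0023 in control and 0.798 ± 0.0083 in knockdown libraries, the opposite direction to spermatocytes.

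The order of the subunits by level also differed between the cell line and sorted cells. Both tables were made separately, so only ranks within each are given. In control GC2 cells the most abundant of the 31 constitutive genes was Psmb1 (206 ± 15.8 FPKM), which ranked 24 in control spermatocytes at 24.4 FPKM. Psmb5 was the least abundant in control GC2 cells, at 8.72, 15.35 and 13.91 FPKM, and ranked 5 in control spermatocytes. Psma2 ranked 2 in GC2 cells (170 ± 24.4 FPKM) and 29 in spermatocytes, where its row is shared. Psma6, Psmc5, Psma3 and Psmc4 held the same rank in both. Spearman's rho over the 31 genes was 0.271, a description over genes that share libraries.

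Genes called in both contrasts numbered 7 of 34, or 20.6%, next to 18.8% of all 9666 genes tested in both, so the count lies near the background. Psma7 was higher in both, and Psmb6, Psmc2, Psmc3 and Psmd11 were lower in both. Psmb3 was lower in GC2 and higher in spermatocytes, and Psmd8 was higher in GC2 and lower in spermatocytes. Only Psmc2 and Psmb3 kept their calls in both contrasts in every alternative run. The spermatocyte value of Psmb6 changed sign with median centring (0.04). The difference of the fold changes (spermatocyte minus GC2), tested in 1 fit of all 12 libraries, was 0.72 for Psmb3 (SE 0.044, adjusted p = 4.1e-07) and -0.94 for Psmd8 (SE 0.111, adjusted p = 4.55e-05). It was -1.26 for Psmc3 (adjusted p = 5.5e-07) and -0.27 for Psmc2 (adjusted p = 0.0126), so both fell more in spermatocytes. Psmd11 did not pass this test (-0.13, adjusted p = 0.113), but did with quantile normalization (-0.27, adjusted p = 0.00751) and median centring (-0.28, adjusted p = 0.00524).

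Over all subunits the difference was called for 22 of 34 tested, next to 60.9% of all 9666 genes tested. All 10 of the core genes called had a positive difference (10 of 14 tested), and for the cap 5 were positive and 6 negative (of 17). Of all 9666 genes, 3674 were called positive and 2216 negative. A positive difference need not be a rise in spermatocytes. Psmb6 was lower in both contrasts in the main fit, by -0.41 in GC2 cells and -0.12 in spermatocytes. The median difference was 0.35 over the core, -0.14 over the cap and 0.22 over all genes tested. With median centring the median over all genes was 0.07, and 6 of the 10 core calls were lost (Psma4, Psma5, Psmb2, Psmb4, Psmb6 and Psmb7). With quantile normalization the share of positive calls among all calls went from 62.4% to 50.6%, and the core gene Psmb1 was called negative (-0.26, adjusted p = 0.0397). Psmc1, Psmd1, Psmd4, Psmd6 and Psmd11 of the cap were newly called under both scalings, all negative.

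To show the upstream sequence of subunits that moved in both contrasts, the 100 bases before the transcript start of 4 of the 7 genes are printed, 5′ to 3′ on the gene's strand, from RefSeq on GRCm38.p6. In the windows of Psma7 and Psmc2 an exon of a neighbouring gene (Ss18l1 and Dnajc2) lies in those bases, so they are not printed, and Psmc3 is named only. Where RefSeq and GENCODE M21 differ in the start, the more upstream start was used. The directions given are those of the main fit. Capitals mark a match to the antioxidant response element core, searched as TGACNNNGC or TGAGNNNGC on both strands.
Psmb3 (chr11:97703299-97703398, plus strand, lower in GC2 and higher in spermatocytes): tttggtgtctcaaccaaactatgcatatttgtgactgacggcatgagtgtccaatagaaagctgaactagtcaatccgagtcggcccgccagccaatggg
Psmb6 (chr11:70525257-70525356, plus strand, lower in both): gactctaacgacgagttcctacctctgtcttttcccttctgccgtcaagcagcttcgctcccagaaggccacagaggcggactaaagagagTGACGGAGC
Psmd11 (chr11:80428515-80428614, plus strand, lower in both): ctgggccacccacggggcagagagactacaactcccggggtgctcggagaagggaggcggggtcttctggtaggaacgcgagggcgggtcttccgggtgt
Psmd8 (chr7:29180702-29180801, minus strand, higher in GC2 and lower in spermatocytes): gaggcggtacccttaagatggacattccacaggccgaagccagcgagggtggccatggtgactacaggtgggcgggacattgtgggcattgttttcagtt

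Of these 4 stretches only that of Psmb6 holds a match. Over windows from 250 bases before to 50 after the start, 14 of the 29 subunits with a RefSeq entry held at least 1 match (48.3%), next to 8314 of 27025 genes (30.8%). Of the 2 genes called in opposite directions, Psmb3 has a match in the longer window, 10 bases before the RefSeq start, and Psmd8 has none there. A match describes the letters only.

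Some of the catalytic replacements and activators of the core, which the name rule leaves out, moved more than most subunits. These were Psmb8, Psmb10, Psme1 and Psme2 in GC2 cells and Psme1, Psme2 and Psme4 in spermatocytes. In GC2 cells the immunoproteasome gene Psmb8, which replaces Psmb5, went from 19.93, 18.38 and 18.79 FPKM to 3.18, 3.02 and 2.81 (-2.32, SE 0.061, adjusted p = 4.03e-05). Psmb10, which replaces Psmb7 and shares its row with Ctrl, went from 5.53, 5.66 and 5.99 to 1.83, 1.99 and 1.93 (-1.21, adjusted p = 0.000242). Psmb9, which replaces Psmb6, was at 0.29 to 0.37 FPKM in control and 0.07 to 0.14 in knockdown libraries, under the filter.

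The paired activator genes Psme1 and Psme2 (PA28) fell with them in GC2 cells, from 40.4 ± 3.21 to 21.4 ± 1.504 FPKM (-0.88, adjusted p = 0.0021) and from 54.8 ± 3.93 to 26.99 ± 1.46 (-0.99, adjusted p = 0.000928). In spermatocytes both rose, from 12.9 ± 0.392 to 23.2 ± 1.78 FPKM (0.80, adjusted p = 3.75e-05) and from 17.6 ± 0.967 to 32.1 ± 2.12 (0.83, adjusted p = 3.26e-05). Psmb8 was between 0.13 and 0.21 FPKM in control and 0.47 and 0.66 in knockout spermatocytes and Psmb9 at most at 0.52, both under the filter, and Psmb10 rose slightly (0.26, adjusted p = 0.011). The differences between the contrasts were 1.68 for Psme1 and 1.82 for Psme2 (adjusted p = 5.54e-07 and 1.85e-07). The macrophage, Sertoli and Leydig markers given above rose in the same knockout libraries.

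Psme4, the activator associated with Psma8 in germ cells, fell with it in spermatocytes. It was at 51.78, 51.48 and 52.79 FPKM in control and 14.69, 15.32 and 14.52 in knockout libraries (-1.74, SE 0.029, adjusted p = 5.15e-08), with control libraries close together. In GC2 cells it was at 22.76, 25.97 and 23.31 FPKM in control and 22.23, 23.41 and 26.33 in knockdown libraries (-0.00, adjusted p = 0.988). The difference between the contrasts was -1.74 (adjusted p = 1.62e-07). Psme3, the nuclear activator, had a log2 fold change of -0.15 in spermatocytes (adjusted p = 0.00252), no larger than the shift of the subunit median from -0.00 to 0.16 with median centring. Psmf1, which encodes the inhibitor PI31, fell from 9.33 ± 0.388 to 4.51 ± 0.142 FPKM (-0.91, adjusted p = 4.79e-06).

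**Figure D5:**
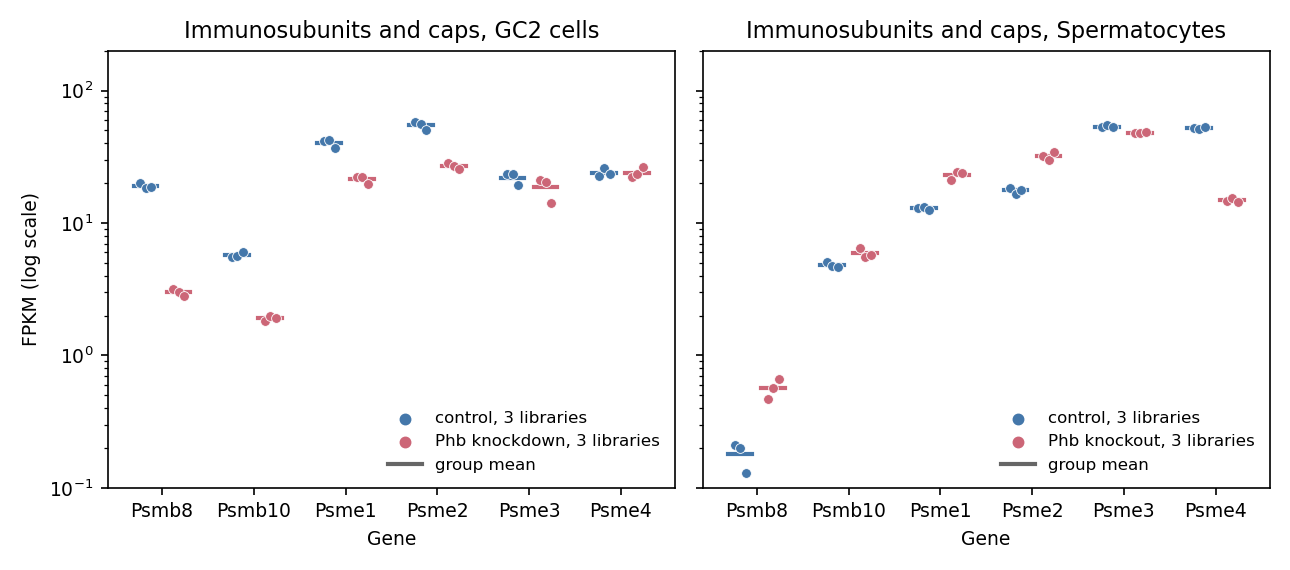
FPKM on a log axis of the immunoproteasome genes Psmb8 and Psmb10 and the activator genes Psme1 to Psme4 in GC2 (left) and spermatocyte (right) libraries; points are libraries and lines group means. Psmb8, Psmb10, Psme1 and Psme2 are lower in knockdown GC2 cells, and Psme4 is lower in knockout spermatocytes only.

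Of 33 tested genes of the proteasome-related lists 18 rose and 11 fell in spermatocytes (median log2 fold change 0.24) and 5 rose and 11 fell in GC2 cells (-0.06). In spermatocytes these are shares of 54.5% and 33.3%, next to 40.9% and 38.5% of all rows, and in GC2 cells 15.2% and 33.3%, next to 10.7% and 13.9%. Of the 5 core assembly genes 2 rose and 1 fell in spermatocytes and 1 rose and 1 fell in GC2 cells; the assembly factor gene Pomp was among those that rose in spermatocytes (0.26, adjusted p = 0.000231). Psmg3 had the largest value of this list in spermatocytes (1.66), but its row is shared with Tmem184a. Of the 7 cap-bound proteins 5 rose and 2 fell in spermatocytes, with the deubiquitinase gene Uchl5 going from 15.1 ± 0.821 to 6.76 ± 0.0764 FPKM (-1.05, adjusted p = 2.56e-06), and 2 rose and 2 fell in GC2 cells, where the thioredoxin-like Txnl1 rose most (0.68, adjusted p = 0.00509).

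Shuttle receptors carry ubiquitinated proteins to the cap, and 1 rose and 3 fell of 5 in spermatocytes. Ubqln2 rose from 8.31 ± 0.309 to 22.6 ± 0.486 FPKM (1.34, adjusted p = 3.42e-07). In GC2 cells 1 of 4 tested, Rad23b, was called (0.24, adjusted p = 0.00695). Ubqln2 did not pass the filter there, with 12.95 FPKM in control replicate 1, 9.3 in knockdown replicate 2 and a listed 0 in the other 4 libraries.

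The transcription factor Nfe2l1, which drives subunit genes when proteasome activity is low, is released from the endoplasmic reticulum by steps that need Ngly1 and the protease Ddi2. In spermatocytes Nfe2l1 rose from 7.64 ± 0.718 to 14.04 ± 0.666 FPKM (0.80, adjusted p = 7.88e-05), its relative Nfe2l2 from 13.1 ± 0.710 to 36.9 ± 0.817 (1.43, adjusted p = 5.92e-07), and Ngly1 fell from 10.5 ± 0.714 to 3.4 ± 0.282 (-1.38, adjusted p = 5.33e-06). Ddi2, whose row there is shared with Rsc1a1, was slightly higher (0.11, adjusted p = 0.0126). In GC2 cells Nfe2l1 fell from 61.9 ± 0.857 to 45.4 ± 1.69 FPKM (-0.44, adjusted p = 0.00248). Ngly1 (0.06, adjusted p = 0.49) and Ddi2 (0.18, adjusted p = 0.0962) were not called in GC2 cells. Nfe2l2 was not called there and had 1 library apart, with 26.04, 74.11 and 24.16 FPKM in the knockdown libraries against 44.06, 44.46 and 42.14 in control.

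Of the 6 genes listed for ubiquitin, its activating enzyme and the ATPase Vcp, 4 rose and 1 fell in spermatocytes and 1 rose and 3 fell in GC2 cells. The gene that rose in GC2 cells was Vcp (0.21, adjusted p = 0.0345). The polyubiquitin gene Ubb was lower in both, from 274 ± 9.84 to 190 ± 16.6 FPKM in GC2 cells (-0.53, adjusted p = 0.00659) and from 577 ± 1.15 to 421 ± 4.30 in spermatocytes (-0.45, adjusted p = 3.05e-06). These values are those of its row with the highest mean. Another Ubb row, not used, had a mean of 16.2 FPKM over GC2 and 125 over spermatocyte libraries. The ubiquitin-activating enzyme gene Uba1 rose in spermatocytes, from 47.01 ± 0.852 to 83.6 ± 1.44 FPKM (0.82, adjusted p = 6.03e-07), and was not called in GC2 cells (0.03, adjusted p = 0.773).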

How the data were processed

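Each library's table, as deposited by the authors, holds FPKM values rounded to 2 decimals. Per the submitters' processing notes HISAT2 2.1.0 and DESeq were used. No source used here names the quantifier, the annotation release or filters. FPKM is not corrected for composition, so RNA that takes a larger share lowers all other values. GC2 and spermatocyte tables hold different rows and were fitted apart. The test was limma 3.58.1 (R 4.3.3) with a variance trend on log2(FPKM + 1), two-sided, for rows with at least 1 FPKM in at least 3 of 6 libraries, with Benjamini-Hochberg adjustment over all rows tested. This scale understates the change of low genes. The difference between contrasts was fitted over all 12 libraries. Per-library measures were compared with an exact permutation test (scipy 1.17.1). The fits were tested on simulated data. Depth could not be recovered from the steps between low values, so no counting error is given. Members and lists, including the cell markers, were chosen with earlier results of these data known. Named genes are all members, with values by library for Psma7, Psma8, the largest called changes in each direction, members called in opposite directions and the extremes of each subcomplex, and the related genes with the smallest adjusted p. Rows naming several genes cannot be divided between them. Gene positions are from GENCODE M21. Some genes of the related lists are not reported here by name.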

Additional observations from a re-analysis of the deposited data

Results flagged for a closer look

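Fold changes of 22 of 34 tested subunits differed between spermatocytes and GC2 cells in the test of the difference (spermatocyte minus GC2 log2 fold change, limma over 12 libraries, adjusted p under 0.05). Of all 9666 genes tested 60.9% were called, 3674 positive and 2216 negative, so the count lies near the background. The GC2 libraries carry a knockdown in a cell line and the spermatocyte libraries a knockout in sorted cells, so method and cell cannot be told apart. Among the 20S genes all 10 called differences were positive: Psma7 0.93, Psmb3 0.72, Psma2 0.57, Psma1 0.45, Psma5 0.45, Psmb2 0.41, Psmb7 0.37, Psmb4 0.33, Psma4 0.33 and Psmb6 0.29. The 20S genes Psma3 (-0.01), Psma6 (0.04), Psmb1 (-0.04) and Psmb5 (0.06) were not called. The Psma2 row holds a second gene in the spermatocyte table only. Among the ATPase genes the differences were -1.26 for Psmc3, -0.38 for Psmc5, -0.27 for Psmc2, 0.38 for Psmc6 and 0.23 for Psmc4. Among the other cap genes they were -0.94 for Psmd8, -0.52 for Psmd2, -0.39 for Psmd13, 0.38 for Psmd14, 0.31 for Psmd7 and 0.22 for Psmd12. The chaperone gene Psmd10 differed by 1.33 and rested on GC2 values that vary widely within each group. Its call was lost without any 1 of 6 of the 12 libraries (highest adjusted p = 0.0615). The differences of Psmb2, Psmc4 and Psmd14 were lost without 7, 9 and 10 of the 12 libraries, each left out in turn (highest adjusted p = 0.0713, 0.0922 and 0.0965), and that of Psmb6 without 3 of them, GC2 control replicate 2, spermatocyte control replicate 2 or knockout replicate 1 (highest adjusted p = 0.0606). With quantile normalization the differences of Psmd12 (0.06, adjusted p = 0.466), Psmd7 (0.16, 0.0906), Psma4 (0.19, 0.0758), Psmb4 (0.14, 0.0633), Psmb2, Psmb6, Psmc4 and Psmd14 were not called. With median centring these 8 and those of Psma5 (0.30, 0.0557) and Psmb7 (0.22, 0.0814) were not called. Some differences not called in the main fit were called under these settings, all negative. With quantile normalization they were Psmc1 (-0.36, adjusted p = 0.00109), Psmd1 (-0.27, 0.00826), Psmd4 (-0.28, 0.0165), Psmd6 (-0.28, 0.0262), Psmd11 (-0.27, 0.00751) and Psmb1 (-0.26, 0.0397). All of these but Psmb1 were also called with median centring. Psmc1 was called with rescaling without mitochondrial rows as well (-0.18, 0.0445).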

How the results depend on the processing

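Of the subunit calls, 20 of 26 in spermatocytes, 2 of 9 in GC2 cells and 11 of 22 differences between contrasts held in every alternative run. The cause of the changes below was not tested. With median centring the spermatocyte counts were 20 higher and 8 lower. The median log2 fold change over the tested subunits was -0.0034 in spermatocytes and became 0.12 with quantile normalization, 0.16 with median centring and 0.065 with rescaling to 1 total without mitochondrial rows. In GC2 cells it was -0.077 and became -0.033, -0.033 and 0.0010 in the same order. Signs changed in spermatocytes for Psma4 (0.11 with quantile normalization, 0.16 with median centring), Psma6 (0.12 and 0.16), Psmb5 (0.0627 with median centring), Psmb6 (0.0445), Psmc1 (0.0598) and Psmd4 (0.16). In GC2 cells the higher calls were 0 with no filter, 1 without the variance trend and 0 with the replicate block, and the lower calls 4 with no filter and 2 after rescaling. The change of the 31-gene sum became 0.15% in GC2 cells and -1.93% in spermatocytes after rescaling, and -0.21% in spermatocytes with Psmc3 left out, an alternative chosen after seeing the data.

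Leaving out 1 library gave 0 to 1 higher and 3 to 5 lower calls in GC2 cells, and in spermatocytes a median of 0.0089 to 0.039. Replicate numbers were checked as a pairing. Deviations of same-numbered GC2 libraries correlated at 0.124, 0.078 and 0.061, each library best with its own number. In spermatocytes the values were 0.007, -0.054 and 0.007. Since not every pair was above 0.1, the numbers were not taken to pair the libraries, although in GC2 cells the data hint at it. With the replicate block 0 subunits were higher and 9 lower in GC2 cells, where Psma7 (adjusted p = 0.0557) and Psmd8 (0.111) lost their calls and Psma2 (0.0399) and Psma5 (0.0396) were called lower, and 13 and 13 in spermatocytes. Small fold changes, of the size of those of Psmb5, Psmb6 and Psmc1, were near the limit of what 3 libraries a group resolve, and the unknown depth limits Psmb11, Psmb8 and Psmb9 in spermatocytes.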
